A study of Mus musculus with 4 samples.

Results

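The ISG15 conjugation genes are the genes for the ubiquitin-like protein ISG15, for the enzymes that attach it to other proteins, and for the protease that takes it off again. They were found in a table of 17576 loci by position in the mouse build mm9, as every locus with a transcript ID that overlaps the intervals of Isg15, Usp18, Uba7, Ube2l6 or Herc6. That gave 9 loci of 15883 with a transcript ID, for 5 genes. The study profiled polyA RNA of C57BL/6 mouse embryonic fibroblasts, cells grown from mouse embryos, from H3.3-HA knock-in mice. In these mice a cDNA for an HA-tagged histone H3.3 stands in place of the H3f3b gene, so both groups carry that allele. The labels give neither the age nor the number of embryos and do not say whether the cells are 1 line. Of the 4 libraries, the 2 taken after interferon-beta (100 U/ml) for 1 h were compared: naive cells, and cells pretreated before that hour. How long the pretreatment lasted, and how long the cells were left after it, is not given in the sources used here. The libraries at 0 h were not analysed here, so the level before the 1 h stimulus is unknown in both groups, and RNA left from the pretreatment cannot be told apart from RNA made in that hour.

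Interferon-beta acts through the transcription factor complex ISGF3, which binds interferon-stimulated response elements in the promoters of its target genes. ISG15 is among the best known products of this response. It is joined to lysines of other proteins in a relay like that of ubiquitin: an activating enzyme (UBA7), a conjugating enzyme (UBE2L6) and a ligase, which in the mouse is mainly HERC6. USP18 cleaves ISG15 from its targets and, apart from its protease activity, sits at the interferon receptor chain IFNAR2 and dampens further signalling.

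After the hour of interferon-beta, the loci of all 5 genes had a higher value in pretreated than in naive cells. Isg15, the modifier itself, was 24.9-fold higher, the largest fold of the 5. Usp18 was 5.63-fold higher, the locus that holds Herc6 3.80-fold, Ube2l6 3.70-fold and the locus that holds Uba7 1.85-fold. Past 2-fold on the log2(FPKM + 1) scale were 4 of these 5 loci, whereas 2.41% of the 9227 loci with a transcript ID and a mean of at least 1 FPKM (fragments scaled by transcript length and library size) were that much higher. Past 4-fold were 2 of the 5, Isg15 and Usp18, beside 0.867% of those loci. Each group has 1 library, so none of these differences has a replicate check, and the spread between cultures is unknown. In RNA of whole cultures, more cells that express a gene and more RNA per cell cannot be told apart.

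The promoter sequences are shown first, because ISGF3 binds elements in promoters. How the genes respond to interferon-beta itself was not measured here, since both libraries had it for 1 h. RefSeq promoter windows of GRCm38.p6, which run from 250 bases before to 50 bases after the annotated start, were given for 4 of the 5 genes. Usp18 is named only. Each window was searched on both strands for the core of the interferon-stimulated response element, taken as GAAA, any 2 bases and GAAA, and for the gamma-activated site, taken as TTC, any 3 bases and GAA, whose matches may overlap those of the core. The window of Isg15 held 3 overlapping matches to the core on the strand of the gene, starting 78, 72 and 66 bases before the start. The windows of Uba7, Ube2l6 and Herc6 held 0 matches to the core, and all 4 windows held 0 to the gamma-activated site. Of 32851 promoter windows of this length, 3.44% held at least 1 match to the core and 5 windows held 3 or more. A match to the gamma-activated site was in 8.30% of windows. With 1 more base, a C after the second GAAA, the Isg15 window had 2 matches, and 0.819% of all windows had at least 1.

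The 100 bases before the start are printed 5′ to 3′ on the strand of the gene for Isg15 (chr4:156200819-156200918, minus strand) and, to set the same stretch beside it, for Ube2l6 (chr2:84798728-84798827, plus strand) and Herc6 (chr6:57580892-57580991, plus strand), all in GRCm38.p6. The stretch of Uba7 is not printed, because a GENCODE M21 transcript of the gene starts inside it. It does hold the letters tttcactttt, which differ in 1 base from the core as read on the other strand. The search took exact matches only, so such near matches were not counted in any window. Capitals mark the bases covered by a match to the core.
Isg15: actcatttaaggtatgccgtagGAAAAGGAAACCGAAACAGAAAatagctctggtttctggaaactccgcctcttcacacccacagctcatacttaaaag
Ube2l6: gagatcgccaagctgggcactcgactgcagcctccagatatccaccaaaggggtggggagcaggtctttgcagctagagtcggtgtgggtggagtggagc
Herc6: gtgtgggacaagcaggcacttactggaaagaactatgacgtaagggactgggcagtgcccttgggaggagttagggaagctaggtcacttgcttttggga
In Isg15 the 3 matches share GAAA blocks and form 1 unbroken run of 22 bases. No such run of letters is in the other printed stretches, which says only that these letters are not in these windows and nothing about the binding of a factor.

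The table gives no gene symbols, so the identity of each locus rests on its position, and it was checked on spans. The locus of Isg15 spans 1395 bp, the span of the gene in RefSeq for GRCm38, and that of Ube2l6 spans 11176 bp, again equal to RefSeq. The Usp18 locus, at 25018 bp, is 6 bp longer than the RefSeq gene. The loci of the other genes share their spans with further loci. The locus with Uba7 spans 73216 bp against 8490 bp for the gene, which is the distance from the start of Uba7 to the end of Ip6k1 in GRCm38, and it carries 19 transcript IDs. A span is printed alike for every locus on it, also for those with 1 transcript ID, and the 19 IDs could not be assigned to genes, so whether the value is for Uba7 alone is not known. The locus with Herc6 spans 206958 bp against 84145 bp for the gene, the distance from the start of the transcript Gm45193 to the end of Pyurf, and it carries 4 transcript IDs, which were likewise not assigned. Another 4 loci on these shared spans carry serial numbers from the block of minus-strand loci, whereas Uba7 and Herc6 lie on the plus strand. They are given apart.

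The modifier comes first. Isg15 (XLOC_019288, transcript uc012dri.1) lies on chromosome 4 from 155573533 to 155574927 in mm9. Its level was 4.49 FPKM in naive cells and 112 FPKM in pretreated cells. It was thus a gene of moderate level in naive cells, with 65.3% of the 15859 loci with a transcript ID and an estimate below it, and a high one in pretreated cells, with 96.0% below it. The difference on the log2(FPKM + 1) scale was 4.36, and 13 of the 9227 loci compared had a larger one. In the authors' deposited table the log2 fold change is 4.64 and the q-value is listed as 0.

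An error for these folds was read from the same table. The deposited p-values are the two-sided normal tail of the deposited test statistic, to within 2.86e-06 at 13009 loci, so the log2 fold change divided by the statistic gives the standard error the authors' test used. This error covers what that test takes as the uncertainty of the reads of these 2 libraries and holds no spread between cultures. For Isg15 it was 0.41 on the log2 scale, which gives a 95% interval of the fold from 14.3 to 43.4. GENCODE M21 holds a processed pseudogene that matches 482 of the 756 bases of the Isg15 transcript at 95.2% identity, so the division of reads between the copies is uncertain.

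**Figure D1:**
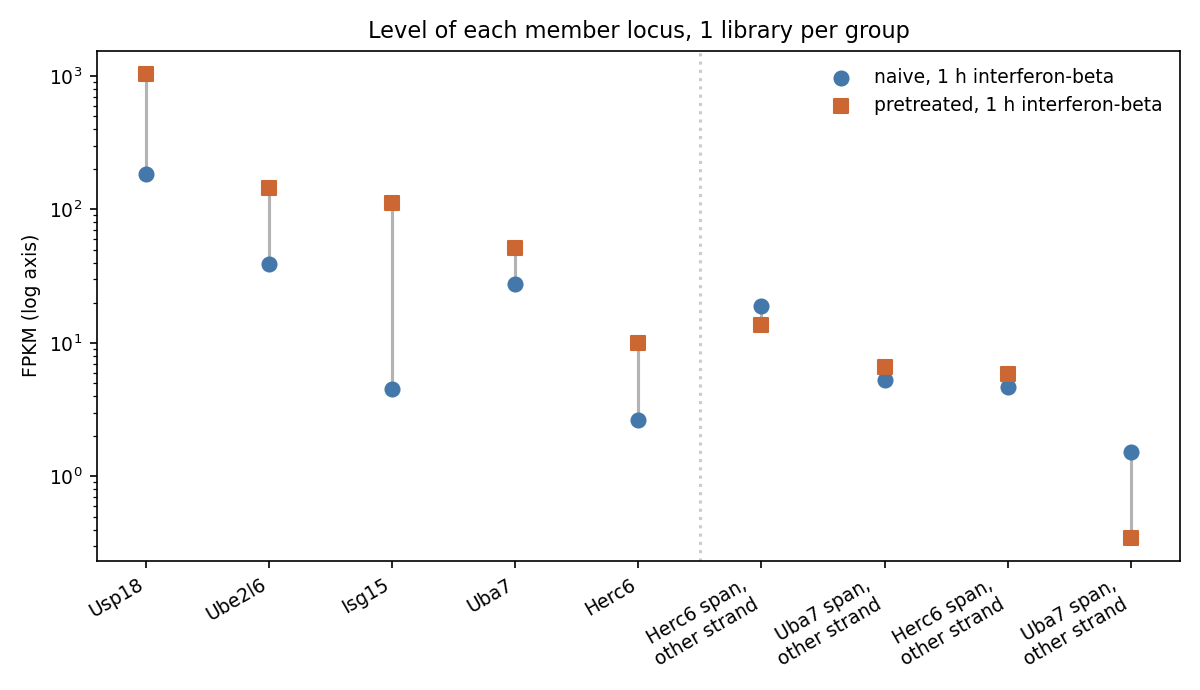
FPKM on a log axis for the 9 loci found by position, with circles for the naive and squares for the pretreated library, both after 1 h of interferon-beta and 1 library each. The 5 loci left of the dotted line lie on the strand of the named gene and are all higher in the pretreated library, from 10.0 FPKM for Herc6 to 1034 FPKM for Usp18; the 4 loci to the right share the spans of Uba7 and Herc6 on the other strand.

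The activating enzyme, UBA7, charges ISG15 for transfer. The locus that holds Uba7 (XLOC_027458) lies on chromosome 9 from 107877898 to 107951113 in mm9. Its level was 27.8 FPKM without and 51.5 FPKM with pretreatment. This was the smallest difference of the 5, 0.87 on the log2(FPKM + 1) scale and short of 2-fold, with a 95% interval of the fold from 1.31 to 2.62. Nevertheless 320 of the 9227 loci compared had a larger difference, and the authors' deposited table calls the locus higher at a q-value of 0.00798. Its deposited log2 fold change, 0.89, lies inside the 5th to 95th percentile of the loci compared, whose upper end is 0.91. On the log2(FPKM + 1) scale, however, its 0.87 lies above the 95th percentile, which is 0.70. As its 19 transcript IDs were not assigned to genes, this level and fold may not be those of Uba7 alone. A transcript of Gm20661 also matches 208 bases of Uba7 at 98.6% identity.

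The conjugating enzyme, UBE2L6, receives ISG15 from UBA7. Ube2l6 (XLOC_014079, transcript uc012byn.1) lies on chromosome 2 from 84638985 to 84650160 in mm9. Its level was 38.9 FPKM without and 144 FPKM with pretreatment. It was already among the higher loci in naive cells, with 90.9% of loci below it, and stood above 96.6% in pretreated cells. The difference was 1.86 on the log2(FPKM + 1) scale, with a 95% interval of the fold from 2.21 to 6.20, and the authors' deposited table gives a q-value of 3.47e-05. Transcripts of 13 other genes match at least 100 bases of the longest Ube2l6 transcript at 90% identity or more, so some of its reads could belong elsewhere.

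The ligase, HERC6, passes ISG15 to its targets. The locus that holds Herc6 (XLOC_021407) lies on chromosome 6 from 57435115 to 57642072 in mm9. Its level was 2.64 FPKM without and 10.0 FPKM with pretreatment, the lowest of the 5 in both libraries. The difference was 1.60 on the log2(FPKM + 1) scale, which understates the change at such low values. The 95% interval of the fold ran from 2.73 to 5.29, and the authors' deposited table gives a q-value of 3.99e-13. The transcript Gm45193, on the same strand, holds a stretch of 688 bases identical to Herc6, so the division of reads between them is uncertain.

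The protease, USP18, removes ISG15 and restrains the receptor. Usp18 (XLOC_021644, transcript uc009dog.2) lies on chromosome 6 from 121195924 to 121220941 in mm9. Its level was 184 FPKM without and 1034 FPKM with pretreatment, the highest of the 5 in both. Only 130 loci with a transcript ID had a higher value in the pretreated library, against 460 in the naive one. The difference was 2.49 on the log2(FPKM + 1) scale, with a 95% interval of the fold from 3.01 to 10.5, and the authors' deposited table gives a q-value of 4.68e-06. A transcript of Gm44148 matches 126 bases of Usp18 at 100% identity, so the division of reads between them is uncertain.

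Of the 4 loci on the other strand of the Uba7 and Herc6 spans, 2 had a higher and 2 a lower value in pretreated cells. On the Uba7 span, XLOC_028358 had 5.32 FPKM without and 6.56 FPKM with pretreatment. XLOC_028359 had 1.53 FPKM without and 0.348 FPKM with pretreatment, and its mean lies under 1 FPKM. On the Herc6 span, XLOC_022161 had 18.7 and 13.6 FPKM, and XLOC_022162 had 4.68 and 5.83 FPKM, naive first. None of the 4 was past 2-fold on the log2(FPKM + 1) scale. The authors' deposited table calls XLOC_028359 lower, with a log2 fold change of -2.13 and a q-value of 0.0358, and does not call the other 3. Over all 9 loci, 8 reached a mean of 1 FPKM, 4 were past 2-fold higher, 0 past 2-fold lower, and the median difference was 0.87. Over the 5 loci on the strand of the genes the median was 1.86, against -0.13 over the 9227 loci compared, of which 4.24% were at least 2-fold lower. These were 222 higher and 391 lower loci. Counted from their own median, 320 were higher and 259 lower. The 5 genes kept their direction, which was fixed in advance, since taking off a negative median raises every difference.

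By the q-value of the authors' deposited table, under 0.05, all 5 loci on the strand of the genes are called higher. Among the 11721 tested loci with a transcript ID, 3.92% are called higher and 10.8% lower. That test sets the reads of 2 libraries against each other and does not compare the conditions. Where the minus-strand values were added to those of the genes, the difference of the Herc6 span went from 1.60 to 0.17, since 26.1 FPKM in naive stood beside 29.5 FPKM in pretreated cells, and 3 of the 5 genes were then past 2-fold.

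**Figure D2:**
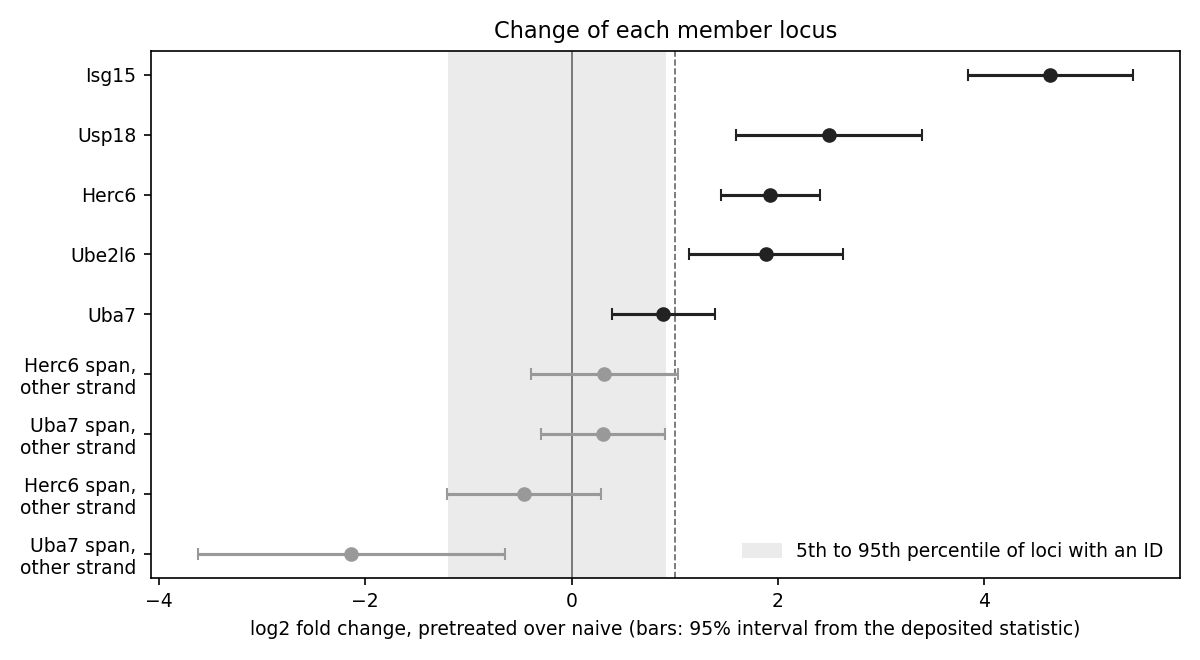
Log2 fold change of each of the 9 loci, pretreated over naive, with bars for the 95% interval computed from the statistic in the authors' deposited table. The grey band is the 5th to 95th percentile of loci with a transcript ID and a mean of at least 1 FPKM. The dashed line marks 2-fold, and Isg15 stands apart at 4.64. The Uba7 locus, at 0.89, lies inside the band, and its interval crosses the dashed line.

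The size of the change was then set side by side between the genes, within the error of the reads of these 2 libraries only. Whether the genes would keep this order in other cultures was not tested. Of the 10 pairs among the 5 loci, 7 had a difference in log2 fold change whose 95% interval, from the errors above and not adjusted for the number of pairs, left out 0. All 4 pairs with Isg15 were among them: its log2 fold change exceeded that of Usp18 by 2.14, with an interval from 0.94 to 3.35, and that of the Uba7 locus by 3.75, with an interval from 2.80 to 4.69. The Uba7 locus had a lower fold than each of the others here, and its difference from Ube2l6 was the smallest of these, at 1.00 with an interval from 0.10 to 1.90. Usp18, Herc6 and Ube2l6 could not be placed in order. Usp18 and Ube2l6 differed by 0.61, with an interval from -0.57 to 1.78, and Herc6 and Ube2l6 by 0.04, with an interval from -0.84 to 0.92.

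**Figure D3:**
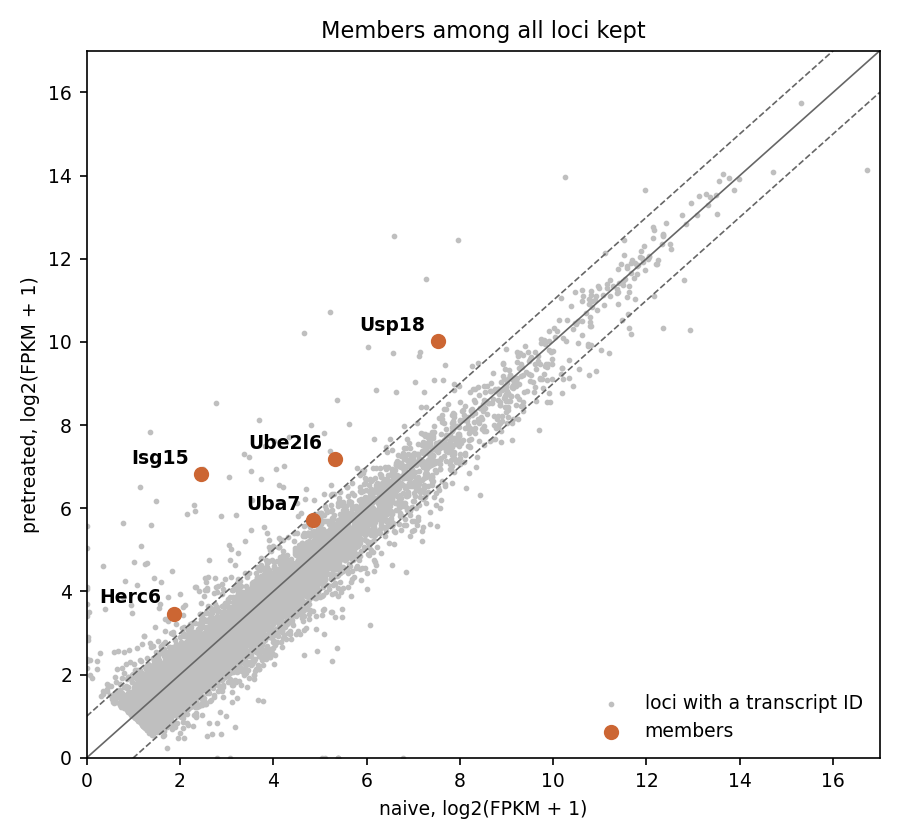
Level in naive against level in pretreated cells, both as log2(FPKM + 1), for 9227 loci with a transcript ID (grey) and the 5 loci on the strand of the genes (orange). The dashed lines mark 2-fold; Isg15, Usp18, Ube2l6 and Herc6 lie above the upper one and Uba7 lies between the lines.

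Levels were set against each other within a library, since FPKM is scaled by transcript length. That scaling makes genes comparable only where reads are spread along the transcripts. The labels name scTSS-seq as well as RNA-seq, and the values were treated as RNA-seq. The transcript IDs of the loci that hold Uba7 and Herc6 were not assigned to genes, and reads of Isg15 may be shared with its pseudogene. The ratios below may thus not be those of the genes alone. The order in naive cells was Usp18, Ube2l6, the Uba7 locus, Isg15 and the Herc6 locus. In pretreated cells Isg15 had passed the Uba7 locus and stood next below Ube2l6. No spread over samples is known for a level, so it cannot be said which neighbours in this order differ. In naive cells, the transcript of the protease was listed at 40.9 times that of the modifier it removes. In pretreated cells Usp18 was at 9.24 times Isg15. Ube2l6 was at 8.65 times Isg15 in naive and at 1.28 times in pretreated cells. The Uba7 locus was at 6.19 times Isg15 in naive and at 0.460 times in pretreated cells, and the Herc6 locus at 0.586 and 0.0895 times. All 4 thus had a lower level relative to Isg15 in pretreated cells, by a factor of 4.42 for Usp18 up to 13.4 for the Uba7 locus. These factors restate the folds given above, of which Isg15 had the largest, and are not a separate result. With the minus-strand values added, the Herc6 span was at 5.80 times Isg15 in naive and at 0.263 times in pretreated cells. The place of the Herc6 locus below Isg15 in naive cells thus depends on leaving them out. Usp18 was at 6.60 times the Uba7 locus in naive and at 20.1 times in pretreated cells. Against Ube2l6 it was at 4.72 and 7.19 times, a move within the interval given above, which holds 0. Its share of the summed FPKM of the 5 loci was 71.3% in naive and 76.5% in pretreated cells, while that of Isg15 was 1.75% and 8.28%.

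**Figure D4:**
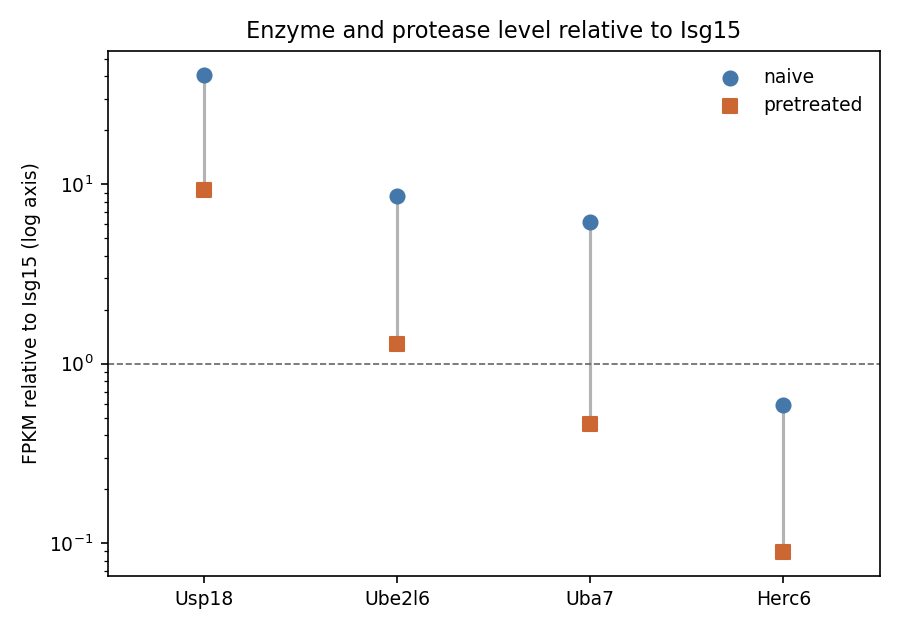
FPKM of Usp18, Ube2l6 and the loci that hold Uba7 and Herc6 relative to Isg15, on a log axis, with circles for naive and squares for pretreated cells. All 4 ratios are lower in pretreated cells, which follows from Isg15 having the largest fold. The Uba7 locus crosses from 6.19 times to 0.460 times the level of Isg15.

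The loci around the genes were then described, to see whether the differences belonged to wider regions. Within 200 kb, 24 neighbouring loci with a transcript ID had a mean of at least 1 FPKM. Of these, 2 were at least 2-fold higher, beside 2.41% of the 9227 loci compared. Their median difference was -0.08 on the log2(FPKM + 1) scale. None was at least 2-fold lower, beside 4.24% of the loci compared. Whether these counts differ from those shares was not tested. Around Usp18 the 2 neighbours differed by -0.09 and -0.69, around the Herc6 locus the 2 neighbours differed by -0.35 and -0.65, and around the Uba7 locus the 7 neighbours ranged from -0.54 to 0.70. Around Usp18 and the Herc6 locus, no neighbour with a transcript ID and a mean of at least 1 FPKM was higher in pretreated cells. The neighbour nearest to the Uba7 locus on its right, 508 bp away and on the same strand, had 4.46 FPKM without and 7.86 FPKM with pretreatment. In the authors' deposited table its log2 fold change is 0.82, at a q-value of 0.0305, beside 0.89 with a standard error of 0.26 for the Uba7 locus, so these did not differ beyond that error.

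Isg15 and Ube2l6 each had 1 neighbour past 2-fold. The locus of Agrn, which encodes the matrix proteoglycan agrin, lies 1936 bp from that of Isg15, on the same strand and downstream of it. Its edge nearest to Isg15 is the side on which Agrn starts. Agrn had 0.854 FPKM without and 2.83 FPKM with pretreatment. On the other side, 2466 bp away and on the plus strand, a locus without a matched symbol had 0.133 FPKM without and 1.46 FPKM with pretreatment; its mean lies under the limit, and it was picked out after its values were seen. The authors' deposited table calls both higher, at q-values of 0.00106 and 1.92e-05. Farther from Isg15, at 72.2 kb, 9430015G10Rik had 4.30 and 2.39 FPKM, and at 186 kb Sdf4 had 17.4 and 23.9 FPKM, naive first. Beside Ube2l6, a minus-strand locus at 23.4 kb on chromosome 2, from 84605517 to 84615586 in mm9, had 8.11 FPKM without and 23.7 FPKM with pretreatment, a difference of 1.44. Timm10, on the other side of Ube2l6 at 17.0 kb, had 18.0 FPKM without and 23.1 FPKM with pretreatment.

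**Figure D5:**
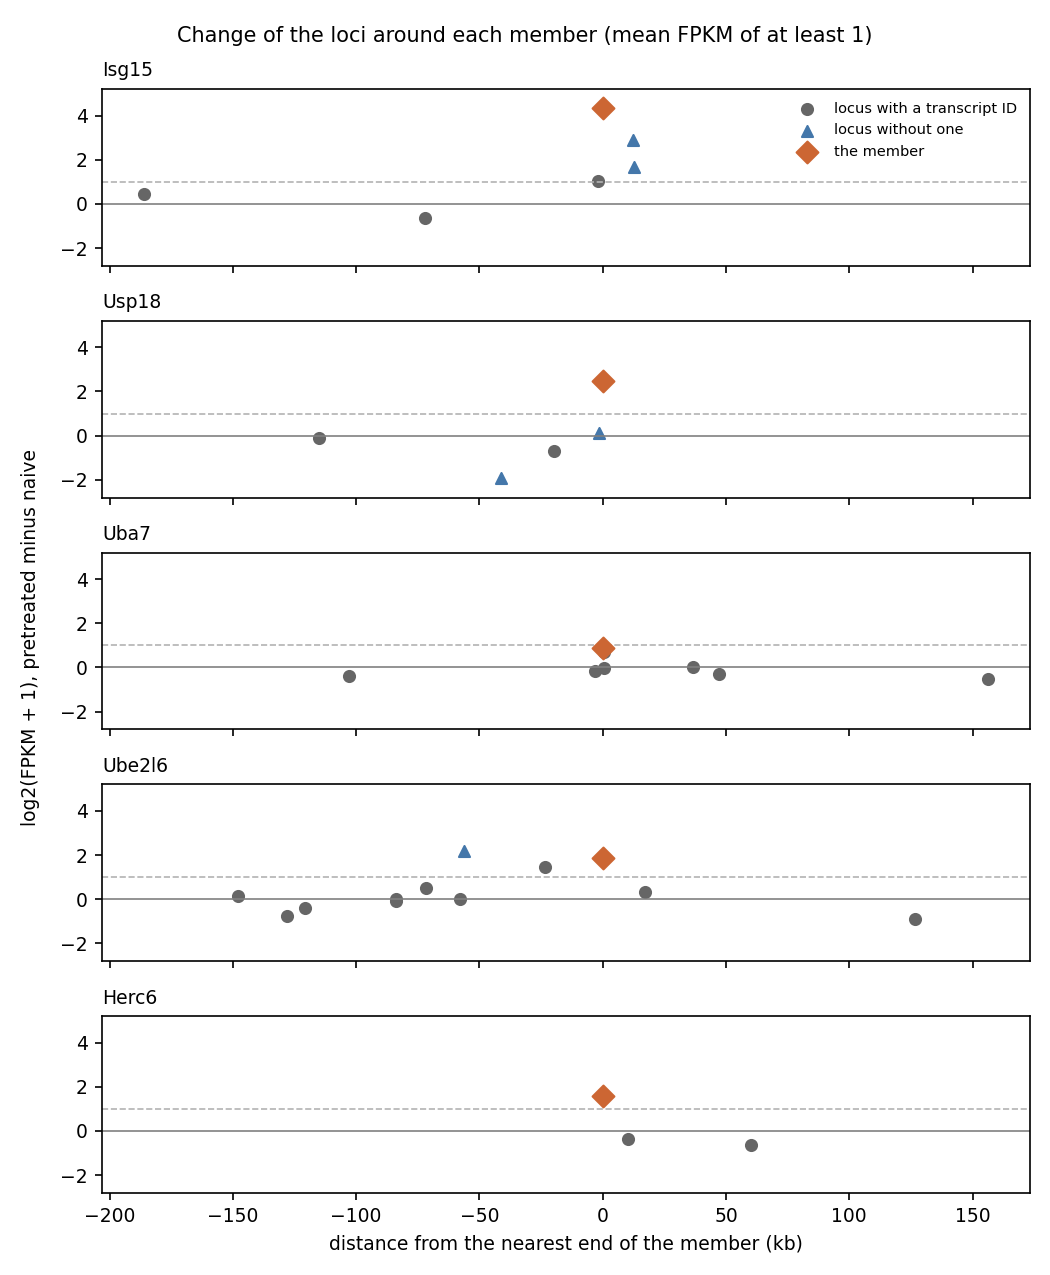
Difference of log2(FPKM + 1), pretreated minus naive, of every locus with a mean of at least 1 FPKM within 200 kb of each gene, against its distance from the nearest end of that gene's locus (positive towards higher coordinates). The gene's locus is the orange diamond, grey circles have a transcript ID and blue triangles have none; the diamond is above every circle in all 5 panels.

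Other genes of the ISG15 and ubiquitin relay were sought by span, since symbols are missing, and 2 of 19 listed genes could be placed. Trim25, a ubiquitin ligase that can also act on ISG15 transfer, had 2.59 FPKM without and 3.07 FPKM with pretreatment. Uba1, the activating enzyme for ubiquitin itself, had 31.4 FPKM without and 26.3 FPKM with pretreatment. In the authors' deposited table their q-values are 0.654 and 0.0946, so 0 of the 2 were called, and 0 were past 2-fold. The log2 fold changes were 0.25 for Trim25, with a standard error of 0.32, and -0.25 for Uba1, with a standard error of 0.11. The remaining 17 were not placed and are not analysed here.

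The locus most like Isg15 in its pair of levels, among 15850 loci with a transcript ID, was XLOC_019859 on chromosome 5 from 115346943 to 115362254. It had 4.59 FPKM without and 122 FPKM with pretreatment, a distance of 0.13 in log2(FPKM + 1) over the 2 libraries. For Usp18 it was XLOC_004139 on chromosome 11 from 48851162 to 48948889, with 140 FPKM without and 861 FPKM with pretreatment, a distance of 0.47. Each was the only locus within 0.5 of the gene it resembles.

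The median level over all loci was 1.69 FPKM in the naive and 1.41 FPKM in the pretreated library, and 823 and 1395 loci with an estimate were listed at 0. How many reads lie behind a value is unknown. Of the 10 listed cell markers 4 could be placed. The fibroblast genes Vim and Col3a1 had 917 and 111 FPKM in naive and 704 and 69.1 FPKM in pretreated cells. Thy1, also listed as a fibroblast gene, was low, with 0.144 and 0.293 FPKM, naive first. The placed fibroblast markers were thus not alike in level. Their differences between the libraries are not called in the authors' deposited table. The q-values there are 0.691 for Vim and 0.330 for Col3a1, and Thy1 was not tested. The endothelial gene Pecam1 had 0.0629 and 0.0204 FPKM. The other 6 were not placed, so the cell type was checked on these 4 only.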

How the data were processed

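Of the 4 libraries, 2 entered, naive and pretreated cells at 1 h, with values in 1 table. Per the submitters' processing notes, TopHat and Cufflinks 1.2.1 were used with mm9; the layout is that of Cuffdiff per the file headers. The authors deposited FPKM values, and p-values and q-values of a comparison of both libraries; annotation, filters and scaling between libraries are not given in the sources used here. The labels name both RNA-seq and scTSS-seq, and the values were treated as RNA-seq.

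Changes are differences of log2(FPKM + 1), with a pseudocount of 1, or the deposited log2 fold change where named. Loci compared had an estimate (24 had none) and a mean of at least 1 FPKM; past 2-fold means a difference of 1. With 1 library per group no test was run; intervals use 1.96 standard errors. Deposited starts were raised by 1. Strand was read from the serial numbers, which run through each chromosome as plus-strand, minus-strand and unstranded blocks. Symbols of other genes were matched after the data were seen: the span had to equal a start-to-end distance of 1 gene in RefSeq or GENCODE M21 (GRCm38) on that chromosome and strand, and its spacing to matches of at least 2 other genes among the 5 nearest loci on each side had to be the same to within 10 bp, which placed 5433 loci. No coordinates were converted. Transcript copies were sought with BLAST 2.17.0. Counting was tested on simulated data. The rule for named genes took every member, the locus nearest in levels to Isg15 and to Usp18, and a pathway list; neighbours within 200 kb were added to it. Alternatives were other pseudocounts, filters, thresholds, centring and summed loci. The members and lists were chosen with earlier results of these data known.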

Additional observations from a re-analysis of the deposited data

Results flagged for a closer look

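Loci without a transcript ID are outside the comparison of the genes. Near the genes, 3 of them with a mean of at least 1 FPKM were at least 2-fold higher in the pretreated library. They are given here for that reason. The first lies 12.2 kb from Isg15, on chromosome 4 from 155587170 to 155587462 in mm9; it was listed at 0 in naive cells and had 6.45 FPKM in pretreated cells. The next lies 12.9 kb from Isg15, from 155587821 to 155588780, and had 0.0735 FPKM without and 2.46 FPKM with pretreatment. The third lies 56.3 kb from Ube2l6, on chromosome 2 from 84582360 to 84582693, and had 0.221 FPKM without and 4.50 FPKM with pretreatment. In the authors' deposited table their q-values are 0.0357, 0.000145 and 0.0360. Within 200 kb of the genes, 5 loci without a transcript ID had a mean of at least 1 FPKM; 3 were at least 2-fold higher and 1 was at least 2-fold lower. The lower one, 41.3 kb from Usp18 on chromosome 6, had 2.77 FPKM without pretreatment and a listed value of 0 with it, at a q-value of 0.0305 in the authors' deposited table. Over all chromosomes, 67 of 1001 such loci, or 6.69%, were that much higher and 337 that much lower.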

How the results depend on the processing

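Over the 5 genes and 5 alternatives each (a pseudocount of 0.1, centring on either median, summed loci and the deposited fold), 22 of 25 changes moved by less than the standard error from the deposited statistic and none changed direction. The other 3 concern Herc6, at 1.60: 1.89 with a pseudocount of 0.1, 1.93 as deposited, and 0.17 when both strands were summed, by construction. Part of the count of 22 was fixed in advance. Centring shifts every gene alike, by less than any of these errors. Isg15, Usp18 and Ube2l6 have 1 locus each, so summing changes nothing. Neither a pseudocount nor its absence can change a direction. The number past 2-fold, 4, became 5 with centring on all loci, 3 with summed loci, 3 of 3 without the shared spans of Uba7 and Herc6 (added after seeing the data), and 2 at 4-fold. Over all loci compared, with or without a transcript ID, 289 were higher and 728 lower; these were 465 and 1175 with a pseudocount of 0.1, 99 and 143 at 4-fold, 176 and 452 at a mean of 5 FPKM, and 423 and 527 with centring. The loci with a transcript ID, the background of the genes, gave 222 higher and 391 lower, and 320 higher and 259 lower when centred on their median, which turns the balance. The cause was not tested. At 500 kb the median difference around Isg15 was 0.06 instead of 0.43, and around Usp18 0.09 instead of -0.39. No paired analysis was possible because only 1 library stands in each group, and no library could be left out. Reads per locus are unknown, so low values such as those of Herc6 carry an error that only the deposited statistic describes.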
